A study of Mus musculus with 16 samples.

Results

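The 9 genes of fatty acid oxidation and of the peroxisome proliferator-activated receptors (PPARs) followed here through RNA-seq of mouse colon organoids were the receptors Ppara and Pparg, the coactivators Ppargc1a and Ppargc1b, and the effector genes Cpt1a, Acadm, Plin2, Pdk4 and Angptl4. They were chosen by name, and the estimated counts of the transcripts of each gene were summed, so that 9 of 54123 genes are described here. Of the 9 genes, 7 passed the filter on low counts and were tested among 15289 genes, whereas Pdk4 and Angptl4 had at most 10 reads in any library. Organoids grew from the proximal or the distal colon of female mice aged 8 weeks, and every group shared 1 genotype, heterozygous for a Cre-inducible BRAFV600E allele and for a Cre-inducible tdTomato reporter. No step that delivers Cre is described for these cultures. Lentivirus carried Cas9 with a Scramble-sgRNA (control) or a Cdx2-sgRNA against the intestinal transcription factor Cdx2, and Cdx2-sgRNA organoids were each grown from a single cell with a frameshift, so that a Cdx2-sgRNA culture is 1 clone, a step not described for Scramble-sgRNA. After 4 months of culture, organoids were kept in full medium (WENR-plus, with Wnt3a, EGF, Noggin and R-spondin 1), or were kept in it for 2 days and then for 3 days in medium without these niche factors (WENR-minus). The 2 regions, 2 guides and 2 media make 8 groups with 2 libraries each. By the study's methods organoids were derived from 2 mice, so that the groups share animals, and the labels do not say whether a replicate number marks the same mouse in every group.

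Long-chain fatty acids enter mitochondria through the carnitine shuttle, whose entry step is carried out by carnitine palmitoyltransferase 1, and are then shortened by the acyl-CoA dehydrogenases and the other enzymes of beta-oxidation. PPARs are nuclear receptors that bind fatty acids, pair with a retinoid X receptor (RXR) and act on genes of this pathway, of lipid droplets and of lipoprotein handling, and the PGC-1 coactivators raise their output and that of mitochondrial genes. In the colon, surface colonocytes are known for burning short-chain fatty acids such as butyrate, while cells at the crypt base rely more on glycolysis.

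The libraries held between 12465194 and 18922143 counts (median 16836530), of which mitochondrial ribosomal RNA took 15.4 to 28.0%. Levels are given as CPM, counts relative to library sizes scaled by the trimmed mean of M-values (TMM). Cdx2 RNA checks the guide only in part, since a frameshift need not lower the RNA: the change was -2.09 in proximal WENR-plus and -1.29 in proximal WENR-minus on the log2 scale, but -0.36 and -0.07 in the distal cultures. The organoids were epithelial, with all 7 epithelial markers present in summed amounts of 3972 to 18059 CPM, while 5 adipocyte markers summed to at most 0.106 CPM, with 3 of them at 0 in every library. The 5 fibroblast markers summed to at most 1.12 CPM, the 4 endothelial markers to at most 3.54 CPM and the 5 immune markers to at most 25.7 CPM. In such bulk libraries fewer cells of a type and less RNA per cell cannot be told apart. A gene was called where edgeR's quasi-likelihood test gave a Benjamini-Hochberg adjusted p under 0.05 over all 15289 genes and the log2 fold change was over 1 in size.

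The receptors differed widely in level. Pparg (chr6:115360951-115490399, plus strand, GRCm38), the receptor best known from adipocytes and also expressed in colon epithelium, had a median of 86.0 TPM (a level per length of transcript, the scale on which genes of different length can be compared) and a range from 41.9 to 195. Ppara (chr15:85734983-85802819, plus strand), the receptor that drives fatty acid oxidation in liver, had a median of 0.545 TPM and 302 reads in the 16 libraries together.

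In proximal organoids, Pparg replicates 1 and 2 gave 108 and 61.5 CPM with Scramble-sgRNA in WENR-plus, 232 and 119.7 in WENR-minus, 44.7 and 40.9 with Cdx2-sgRNA in WENR-plus, and 111 and 133 in WENR-minus. In distal organoids they were 92.7 and 54.1 with Scramble-sgRNA in WENR-plus, 124 and 139.9 in WENR-minus, 70.0 and 82.5 with Cdx2-sgRNA in WENR-plus, and 123 and 136 in WENR-minus. On the CPM scale the WENR-minus libraries lay above the WENR-plus libraries of the same region and guide in every case. The proximal Cdx2-sgRNA WENR-plus pair was the lowest of all groups on that scale. As TPM the distal media overlapped. Distal Scramble-sgRNA gave 88.4 and 51.4 TPM in WENR-plus against 85.6 and 105.4 in WENR-minus, and distal Cdx2-sgRNA 70.5 and 82.5 against 76.9 and 86.4. The 4 WENR-minus groups (means 122 to 176 CPM) overlapped one another in order of level, as did the 3 other WENR-plus groups (73.4 to 85.0 CPM), with a gap on either side of those 3. Replicate 1 of the proximal Scramble-sgRNA culture was the higher one in both media.

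Ppara gave 10 and 30 reads in proximal Scramble-sgRNA WENR-plus, 19 and 73 in WENR-minus, 8 and 7 in proximal Cdx2-sgRNA WENR-plus, and 2 and 0 in WENR-minus. The distal libraries held 25 and 11 reads (Scramble-sgRNA WENR-plus), 25 and 9 (WENR-minus), 32 and 15 (Cdx2-sgRNA WENR-plus), and 20 and 16 (WENR-minus). The proximal Cdx2-sgRNA organoids were thus the lowest in both media, and the 6 other groups overlapped along their order, from a mean of 2.49 CPM down to 0.922 CPM. With 2 reads against 92, Ppara was 42.2 times higher in the proximal Scramble-sgRNA than in the proximal Cdx2-sgRNA WENR-minus libraries (95% exact counting interval 11.3 to 353). Against distal Cdx2-sgRNA WENR-minus, with 36 reads, the ratio was 24.5 (6.31 to 210.2), and against the same proximal Cdx2-sgRNA organoids in WENR-plus, with 15 reads, it was 6.72 (1.56 to 60.5). These intervals cover counting error only and not the spread between replicates. Of the 92 reads of proximal Scramble-sgRNA WENR-minus, 73 lay in replicate 2.

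**Figure D1:**
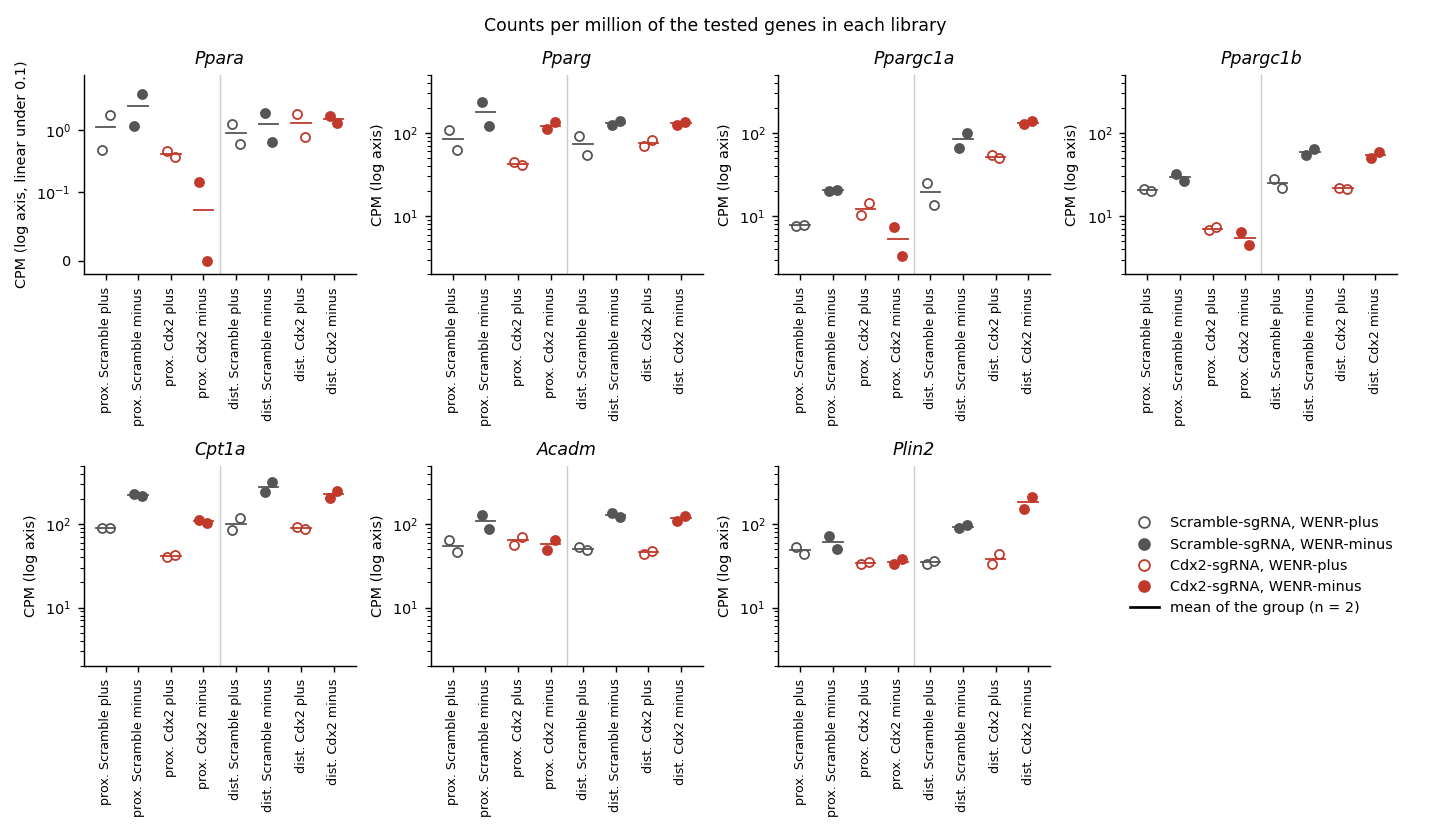
CPM of the 7 tested genes on log axes, linear below 0.1 for Ppara, with 1 point per library, filled points for WENR-minus, open points for WENR-plus, red for Cdx2-sgRNA and short lines at the group means (n = 2). Cpt1a and Pparg lie higher in WENR-minus in every region and guide, while Ppargc1b of the proximal Cdx2-sgRNA organoids stays lowest, at 7.40 CPM or less in both media. Ppargc1a of these organoids stays at 14.2 CPM or less, but lies at 7.69 and 7.87 CPM in proximal Scramble-sgRNA WENR-plus.

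The reads of Pparg came mainly from 1 start site. Transcript Pparg-204, which begins at chr6:115362292, took 80.8% of the reads of the gene (70.6 to 86.5% across libraries) and Pparg-202, which begins upstream at 115360951, took 16.02% (9.07 to 25.2%). Pparg-201, which begins at 115422066, the start of the adipocyte form Pparg2, took 0.775% (0 to 3.19%). The shares are Salmon's estimates, since most exons are shared between these transcripts. The stretch upstream of the start with most reads and of the Pparg2 start follows, to show the sequence at a used and a hardly used start (RefSeq promoter windows, GRCm38.p6, plus strand, 5′ to 3′), the first running from chr6:115362099-115362291 and the second from chr6:115421816-115422065, with the letters TTTATG, the core of the Cdx binding motif, in capitals.
Pparg, upstream of the start with most reads: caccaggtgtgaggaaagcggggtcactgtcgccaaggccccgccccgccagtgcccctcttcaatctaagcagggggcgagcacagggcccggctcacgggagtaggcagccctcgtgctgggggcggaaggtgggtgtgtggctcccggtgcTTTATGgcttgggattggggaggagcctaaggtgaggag
Pparg, upstream of the Pparg2 start: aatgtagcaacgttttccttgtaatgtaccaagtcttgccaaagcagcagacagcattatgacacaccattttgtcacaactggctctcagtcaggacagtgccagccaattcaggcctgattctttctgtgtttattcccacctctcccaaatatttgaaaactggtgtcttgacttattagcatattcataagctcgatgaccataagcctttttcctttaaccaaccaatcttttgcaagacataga
The letters TTTATG or their reverse complement occurred in 11.85% of the 32851 RefSeq promoter windows of 300 bases, so that a match describes the letters and not a bound site. The full windows of both starts hold 1 match each, since that of the Pparg2 window lies after the start and outside the stretch shown, and the letters thus do not set the 2 starts apart.

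**Figure D2:**
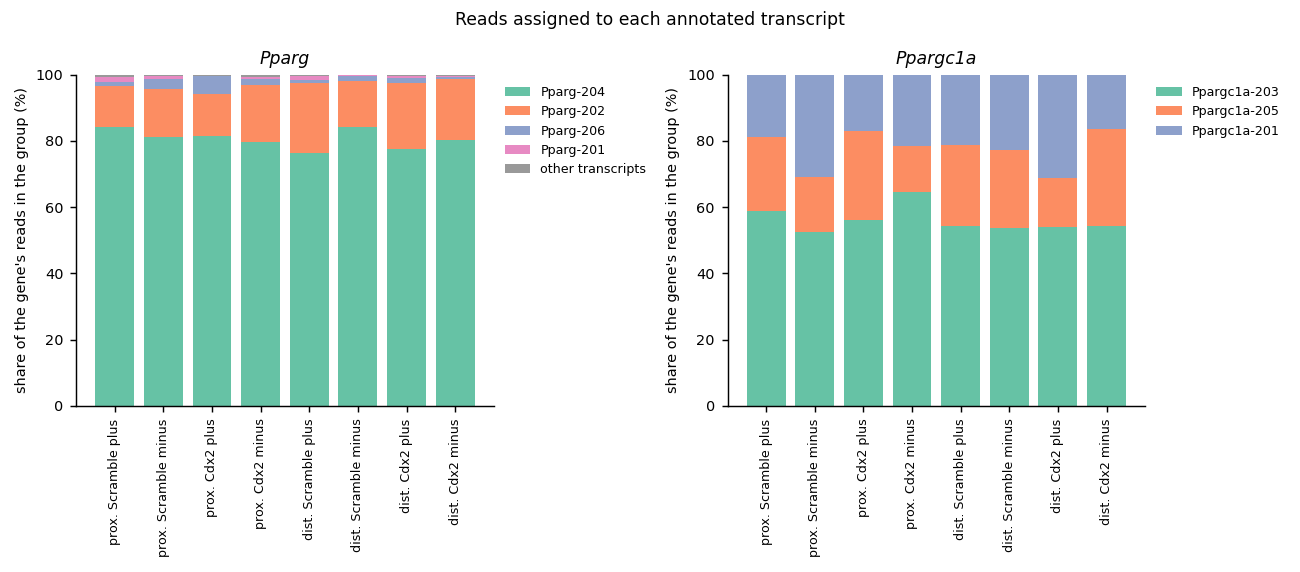
Share in percent of the reads of Pparg (left) and Ppargc1a (right) that Salmon assigned to each annotated transcript, summed over the 2 libraries of each group. Pparg-204 makes up most of Pparg in every group, and the 3 Ppargc1a transcripts that held reads start close to one another.

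The coactivators varied most among the tested genes other than Ppara. Ppargc1a (PGC-1alpha, chr5:51454250-51567726, minus strand), which coactivates PPARs and drives mitochondrial biogenesis, spanned a 24.7-fold range of group means, and Ppargc1b (PGC-1beta, on chromosome 18), its closest relative, spanned 10.8-fold. The others spanned 2.81-fold (Acadm) to 6.82-fold (Cpt1a).

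Ppargc1a gave 7.69 and 7.87 CPM in proximal Scramble-sgRNA WENR-plus, 20.3 and 20.4 in WENR-minus, 10.3 and 14.2 in proximal Cdx2-sgRNA WENR-plus, and 7.42 and 3.33 in WENR-minus. In distal organoids it gave 25.2 and 13.6 with Scramble-sgRNA in WENR-plus, 66.5 and 100.6 in WENR-minus, 53.7 and 49.5 with Cdx2-sgRNA in WENR-plus, and 127 and 138 in WENR-minus. Levels were thus lowest in proximal Cdx2-sgRNA WENR-minus and highest in distal Cdx2-sgRNA WENR-minus, and the 3 highest groups were distal and did not overlap with their neighbours. The next 3 groups (proximal Scramble-sgRNA WENR-minus, distal Scramble-sgRNA WENR-plus and proximal Cdx2-sgRNA WENR-plus, with means of 20.4, 19.4 and 12.2 CPM) overlapped along that order. All Ppargc1a reads fell to transcripts that start between 51553871 and 51553922, with 54.4% of them on Ppargc1a-203, and those annotated to start near 51567726 held 0 reads.

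Ppargc1b gave 21.1 and 20.0 CPM in proximal Scramble-sgRNA WENR-plus, 32.2 and 26.4 in WENR-minus, 6.79 and 7.40 in proximal Cdx2-sgRNA WENR-plus, and 6.38 and 4.50 in WENR-minus. The distal values were 28.1 and 22.0 (Scramble-sgRNA WENR-plus), 53.9 and 63.2 (WENR-minus), 22.1 and 21.0 (Cdx2-sgRNA WENR-plus), and 50.3 and 58.2 (WENR-minus). Distal WENR-minus organoids of both guides were highest and overlapped each other, 4 groups overlapped around 20.6 to 29.3 CPM, and the proximal Cdx2-sgRNA organoids were lowest in either medium.

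Cpt1a (chr19:3322334-3385733, plus strand), the liver and gut form of carnitine palmitoyltransferase 1 and the rate-setting step of mitochondrial import, had a median of 40.5 TPM. It gave 90.5 and 89.4 CPM in proximal Scramble-sgRNA WENR-plus, 227 and 219 in WENR-minus, 39.9 and 42.5 in proximal Cdx2-sgRNA WENR-plus, and 113 and 104 in WENR-minus. Distal organoids gave 84.9 and 117 with Scramble-sgRNA in WENR-plus, 241 and 321 in WENR-minus, 93.4 and 88.2 with Cdx2-sgRNA in WENR-plus, and 206 and 250 in WENR-minus. Each WENR-minus group lay above its WENR-plus group, and the proximal Cdx2-sgRNA WENR-minus libraries overlapped with the distal Scramble-sgRNA WENR-plus libraries. The proximal Cdx2-sgRNA WENR-plus pair was again the lowest of all groups.

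Acadm (chr3:153922357-153944632, minus strand) encodes the medium-chain acyl-CoA dehydrogenase. Its main transcript, Acadm-201, had a median of 43.1 TPM, close to that of Cpt1a, while the sum over all its transcripts (124 TPM) is raised by a 323-base retained-intron transcript. It gave 63.8 and 46.9 CPM in proximal Scramble-sgRNA WENR-plus, 129 and 87.8 in WENR-minus, 56.7 and 70.7 in proximal Cdx2-sgRNA WENR-plus, and 49.4 and 65.0 in WENR-minus. The distal values were 52.5 and 48.5 (Scramble-sgRNA WENR-plus), 135 and 122 (WENR-minus), 44.2 and 47.6 (Cdx2-sgRNA WENR-plus), and 109 and 126 (WENR-minus). The 3 higher groups (means 108 to 129 CPM) were the WENR-minus groups other than proximal Cdx2-sgRNA, which stayed among the WENR-plus groups.

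Plin2 (chr4:86648386-86670060, minus strand), the perilipin that coats lipid droplets in most cell types and a known PPAR target, had a median of 45.6 TPM. It gave 52.8 and 44.0 CPM in proximal Scramble-sgRNA WENR-plus, 71.7 and 50.4 in WENR-minus, 32.9 and 34.7 in proximal Cdx2-sgRNA WENR-plus, and 33.3 and 37.7 in WENR-minus. In distal organoids it gave 33.2 and 36.3 with Scramble-sgRNA in WENR-plus, 90.3 and 96.7 in WENR-minus, 33.0 and 44.3 with Cdx2-sgRNA in WENR-plus, and 154 and 210.2 in WENR-minus. The distal WENR-minus groups stood clear of the rest, Cdx2-sgRNA above Scramble-sgRNA, and the 6 other groups (33.8 to 61.1 CPM) overlapped along their order.

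Since these 3 genes are known PPAR targets in other tissues, their upstream stretches were searched on both strands for the half-site AGGTCA of the PPAR-RXR element and for the full element, a direct repeat of AGGTCA with 1 base N between the copies, which thus also holds half-sites. The full element with these exact letters occurred in 0 of the windows of the 7 members with a RefSeq window, and in 0.04% of all windows. The Ppargc1a window lies at the annotated start near 51567726, whose transcripts held 0 reads, and not at the start in use. The half-site occurred in 16.26% of all windows and once each in those of Cpt1a, Acadm and Plin2, and in 2 of the windows of Pparg. The stretches upstream of the start of the transcript with most reads follow for these 3 genes, 5′ to 3′ on the strand of the gene, with the half-site in capitals as TGACCT, its reverse complement (Cpt1a chr19:3323051-3323284, plus strand, Acadm chr3:153944644-153944893 and Plin2 chr4:86670061-86670309, minus strand, GRCm38.p6).
Cpt1a: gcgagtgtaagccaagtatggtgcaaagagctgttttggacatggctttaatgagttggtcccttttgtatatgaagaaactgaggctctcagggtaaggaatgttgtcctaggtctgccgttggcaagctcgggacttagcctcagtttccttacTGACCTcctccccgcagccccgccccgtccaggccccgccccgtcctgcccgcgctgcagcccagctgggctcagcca
Acadm: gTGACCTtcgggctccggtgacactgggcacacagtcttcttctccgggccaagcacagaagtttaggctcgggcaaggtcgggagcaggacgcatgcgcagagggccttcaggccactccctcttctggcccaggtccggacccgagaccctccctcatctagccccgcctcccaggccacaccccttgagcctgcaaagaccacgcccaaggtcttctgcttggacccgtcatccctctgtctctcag
Plin2: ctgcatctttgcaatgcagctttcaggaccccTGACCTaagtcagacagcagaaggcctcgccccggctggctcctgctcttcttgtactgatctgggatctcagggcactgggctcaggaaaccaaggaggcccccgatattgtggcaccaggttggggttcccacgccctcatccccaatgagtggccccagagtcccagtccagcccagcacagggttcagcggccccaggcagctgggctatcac

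Pdk4 and Angptl4 were close to the counting floor. Pdk4 (chr6:5483351-5496309, minus strand), the pyruvate dehydrogenase kinase that fasting and PPAR ligands induce in muscle and liver, had 10 reads in all 16 libraries, 4 in WENR-plus and 6 in WENR-minus, and at most 3 in a library. Angptl4 (chr17:33773750-33781830, minus strand), a secreted inhibitor of lipoprotein lipase and a known PPAR target, had 1 read in the 8 WENR-plus libraries together and 21 in the 8 WENR-minus libraries, of which 7 held at least 1 read. Its highest library, replicate 2 of proximal Cdx2-sgRNA WENR-minus, held 10 reads. At this depth no difference between guides or regions could be measured for either gene.

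Removal of the niche factors asks how the genes move when organoids leave the stem cell condition. Cpt1a rose in all 4 cultures, by 2.48-fold and 2.79-fold in proximal and distal Scramble-sgRNA organoids and by 2.63-fold and 2.51-fold in proximal and distal Cdx2-sgRNA organoids. Distal organoids of each guide raised Cpt1a, Acadm, Plin2, Ppargc1a and Ppargc1b. Proximal Scramble-sgRNA organoids raised Cpt1a, Ppargc1a and Pparg, and proximal Cdx2-sgRNA organoids raised Cpt1a and Pparg alone among the 7.

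In distal Scramble-sgRNA organoids, Ppargc1a rose 4.31-fold, by 2.11 ± 0.355 (SE) on the log2 scale (adjusted p = 0.000804, edgeR's quasi-likelihood test, as for every adjusted p below unless another tool is named). Cpt1a rose by 1.48 ± 0.18, Plin2 by 1.43 ± 0.213, Acadm by 1.35 ± 0.22 and Ppargc1b by 1.23 ± 0.19. These were 5 of 7 tested members called higher, beside 12.2% of all genes called higher in that comparison. Pparg had a difference of 0.85 ± 0.339 (adjusted p = 0.0662), and passed (1.34, adjusted p = 0.0305) without replicate 1 of distal Scramble-sgRNA WENR-plus.

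In distal Cdx2-sgRNA organoids, Plin2 rose 4.71-fold, by 2.24 on the log2 scale (adjusted p = 1.73e-05), and Ppargc1a, Acadm, Ppargc1b and Cpt1a rose by 1.36, 1.36, 1.33 and 1.33. These 5 of 7 stood beside 14.9% of all genes called higher. Pparg differed by 0.76 (adjusted p = 0.0851).

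In proximal Scramble-sgRNA organoids, Cpt1a rose by 1.31 ± 0.18 (adjusted p = 0.000645), Ppargc1a by 1.39 ± 0.358 (adjusted p = 0.0141) and Pparg by 1.05 ± 0.34 (adjusted p = 0.0375). These were 3 of 7 called higher beside 8.73% of all genes. Acadm reached 0.97 ± 0.218 (adjusted p = 0.00727), just under the fold limit, while Ppargc1b (0.51, adjusted p = 0.0626), Plin2 (0.33, adjusted p = 0.256) and Ppara did not pass. The Pparg call was lost without replicate 2 in WENR-plus (0.74, adjusted p = 0.2265) or replicate 1 in WENR-minus (0.51, adjusted p = 0.354), in a fit of these 4 libraries alone (1.04, adjusted p = 0.110), and, by the fold limit, with at least 10 counts required in every library (0.97). The Ppargc1a call was lost without either WENR-plus library (adjusted p = 0.067 and 0.0669) or replicate 1 in WENR-minus (adjusted p = 0.0532), with a fold change that stayed between 1.41 and 1.44, and Acadm was called without replicate 1 in WENR-plus (1.26) or replicate 2 in WENR-minus (1.28).

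In proximal Cdx2-sgRNA organoids, Cpt1a rose by 1.40 (adjusted p = 0.00145) and Pparg by 1.51 (adjusted p = 0.0163), 2 of 7 beside 3.42% of all genes called higher. Acadm (-0.15), Plin2 (0.07) and Ppargc1b (-0.39) did not pass, and Ppargc1a was lower in WENR-minus by a difference of -1.21 that missed the threshold (adjusted p = 0.0525). With the culture of origin as a replicate block, since both media were split from 1 culture, Ppargc1a fell by 1.26 (adjusted p = 0.0479). It was also called with DESeq2 (-1.20, adjusted p = 0.011), with no filter on low counts (-1.22), with at least 10 counts in every library (-1.28), with length-scaled counts (-1.33), without mitochondrial genes (-1.22), and without replicate 1 in WENR-minus (-1.85, adjusted p = 0.022). In a fit of these 4 libraries alone edgeR called 0 of 13518 genes (2958 at an unadjusted p under 0.05), and the folds of Cpt1a (1.40) and Pparg (1.52) were as large as before (adjusted p = 0.122 for both), while DESeq2 on all libraries called 1173 genes. The Pparg call was also lost, at a similar fold, without replicate 1 in WENR-plus (1.58, adjusted p = 0.051), replicate 2 in WENR-plus (1.45, adjusted p = 0.108) or replicate 2 in WENR-minus (1.38, adjusted p = 0.071).

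**Figure D3:**
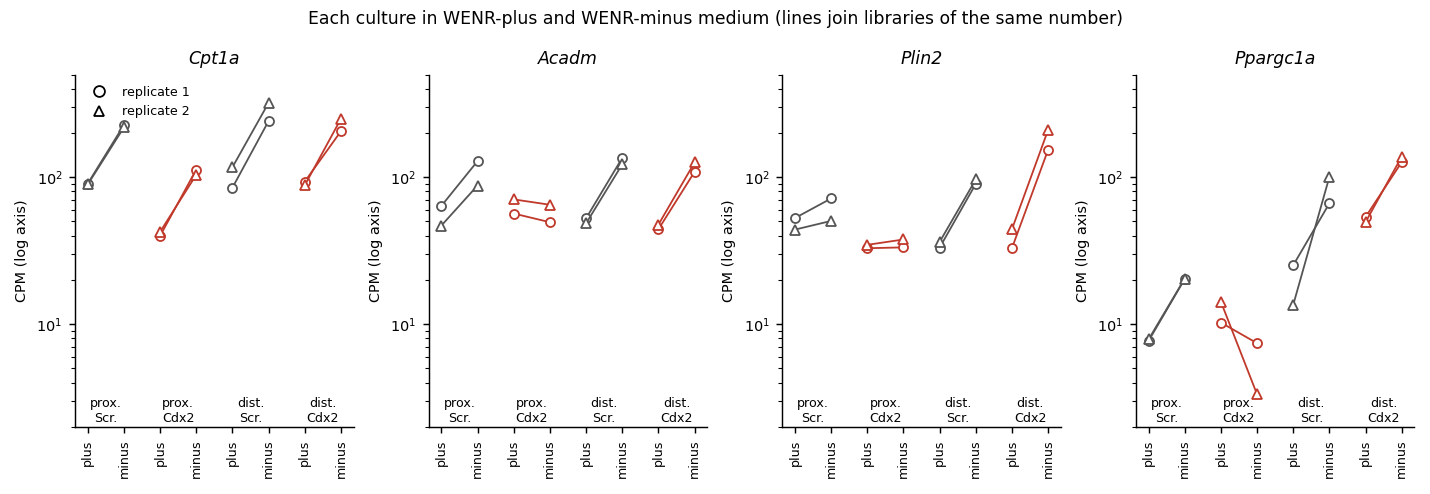
CPM (log axis) of Cpt1a, Acadm, Plin2 and Ppargc1a in WENR-plus and WENR-minus, with lines that join libraries of the same culture number, grey for Scramble-sgRNA and red for Cdx2-sgRNA. Cpt1a rises along all 8 lines, whereas both proximal Cdx2-sgRNA lines of Acadm and Ppargc1a run downward.

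Markers of differentiated cells moved with the medium. The 7 colonocyte markers summed to 206 to 260.0 CPM in proximal Scramble-sgRNA WENR-plus and to 6780 to 10054 CPM in WENR-minus, and to 263 to 431 and 7071 to 11191 CPM in the distal Scramble-sgRNA media. In distal Cdx2-sgRNA they summed to 435 to 654 and 14903 to 15993 CPM, whereas in proximal Cdx2-sgRNA they summed to 136 to 240.4 and 519 to 1591 CPM. Called higher on withdrawal were 6, 6, 5 and 1 of the 7 in proximal Scramble-sgRNA, distal Scramble-sgRNA, distal Cdx2-sgRNA and proximal Cdx2-sgRNA. The 6 cycling markers fell in the first 3 of these cultures (5 of 6 called lower in each) and in none of the 6 cases in proximal Cdx2-sgRNA, while 4, 4, 5 and 3 of 5 crypt stem cell markers fell. The 7 general epithelial markers rose in 5, 6, 6 and 3 cases in the same order of cultures (medians 1.25, 1.32, 1.59 and 0.62), the 5 goblet markers in 3, 3, 3 and 0, and the 4 enteroendocrine markers in 2, 2, 2 and 0, with 1 of 4 lower in each of the first 3. The part of these cell type shifts in the levels of the PPAR and oxidation genes was not tested.

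Comparing Cdx2-sgRNA with Scramble-sgRNA asks what loss of Cdx2 does within a region and medium. In proximal WENR-minus organoids, Ppargc1b was 5.41-fold lower, Ppargc1a 3.84-fold lower and Cpt1a 2.05-fold lower, and Ppara fell to 2 reads in the pair of libraries. In proximal WENR-plus organoids, Ppargc1b was 2.90-fold lower and Cpt1a 2.18-fold lower. No member was called in either distal comparison.

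Proximal WENR-minus had 4 of 7 members called lower, beside 12.1% of all genes. Ppargc1b fell by 2.44 ± 0.204 (adjusted p = 9.8e-06), Ppargc1a by 1.94 ± 0.372 (adjusted p = 0.0025) and Cpt1a by 1.04 ± 0.179 (adjusted p = 0.00131), and the adjusted p of Ppara was 0.00771. Acadm (-0.92, adjusted p = 0.00846) and Plin2 (-0.78, adjusted p = 0.0161) lay under the fold limit, and Pparg (-0.53, adjusted p = 0.258) did not pass. Cpt1a dropped just under the fold limit without replicate 1 of Scramble-sgRNA (-0.98) or replicate 2 of Cdx2-sgRNA (-0.99), as it did with DESeq2, RLE scaling or a fit of these 4 libraries alone (-0.99 in each) and with at least 10 counts in every library (-0.98). Ppara lost its call without the latter library (adjusted p = 0.0626), Acadm was called without it (-1.14), and Acadm (-1.18) and Plin2 (-1.02) were called without replicate 2 of Scramble-sgRNA.

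Proximal WENR-plus had 2 of 7 members called lower, beside 8.94% of all genes, Ppargc1b by -1.53 ± 0.197 (adjusted p = 0.000334) and Cpt1a by -1.13 ± 0.18 (adjusted p = 0.0013). Ppargc1a differed the other way in this medium (0.65, adjusted p = 0.207), and Pparg differed by -0.99 (adjusted p = 0.0544), which passed without replicate 2 of Scramble-sgRNA (-1.32, adjusted p = 0.0398).

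In distal organoids, 0 of 7 members were called lower, beside 3% of all genes in WENR-minus and 0.124% in WENR-plus. Plin2 was 1.95-fold higher with Cdx2-sgRNA in WENR-minus (0.96 ± 0.209, adjusted p = 0.0186), just under the fold limit, which it passed without replicate 1 of distal Cdx2-sgRNA WENR-minus (1.17, adjusted p = 0.030). Ppargc1a was 2.66-fold higher in WENR-plus with groups that did not overlap (1.41 ± 0.348), but its adjusted p was 0.169 with edgeR and 0.00774 with DESeq2. The differences of Cpt1a, Acadm and Ppargc1b were between -0.30 and -0.11 in both media, with 95% intervals within -0.71 and 0.37.

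**Figure D4:**
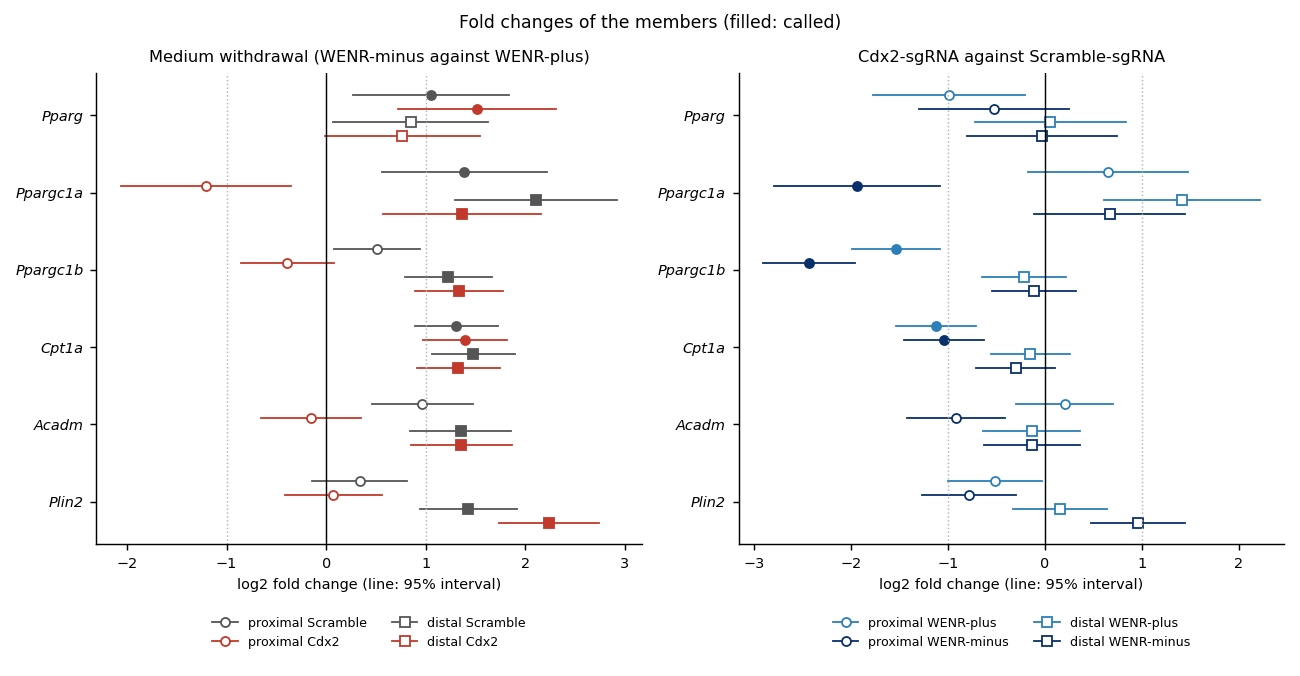
Log2 fold changes of 6 tested genes with 95% intervals, for withdrawal of niche factors (left) and for Cdx2-sgRNA against Scramble-sgRNA (right), with circles for proximal and squares for distal organoids and filled symbols where a gene was called. Ppara is left out because of its low counts, and the proximal circles of Ppargc1b lie at -2.44 and -1.53 on the right while the distal squares lie between -0.22 and -0.11.

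Marker genes of differentiated cells differed in the same comparisons. With Cdx2-sgRNA, 5 of 7 colonocyte and 5 of 5 goblet markers were lower in proximal WENR-minus, 3 of 7 (with 1 higher) and 4 of 5 in proximal WENR-plus, and 1 of 7 (with 1 higher) and 0 of 5 in distal WENR-minus. Of the 7 general epithelial markers 3 were lower in proximal WENR-minus (median -0.78), 1 in proximal WENR-plus and 0 in both distal media. All 4 enteroendocrine markers were lower in both proximal media and 0 of 4 in both distal media, with sums of 0.846 to 1.86 CPM in proximal Cdx2-sgRNA WENR-minus against 114 to 176 CPM with Scramble-sgRNA. Of the 6 cycling markers 1 was higher in proximal WENR-minus and 1 lower in proximal WENR-plus. Of the 5 crypt stem cell markers 1 was lower in each proximal medium, and the 1 tested tuft cell marker was higher in proximal WENR-plus. Both tested immune markers (of 5 listed) were higher in proximal WENR-minus, where the list summed to 15.9 to 25.7 CPM against 0.625 to 1.55 CPM, and 1 of them in proximal WENR-plus, while Adgre1 and Cd3e, which define macrophages and T cells, held at most 3 reads in any library. Their part in the lower Ppargc1a, Ppargc1b and Cpt1a was not tested, and clonal origin and guide cannot be told apart in the Cdx2-sgRNA cultures.

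The difference in the effect of Cdx2-sgRNA between regions was tested directly. In WENR-minus it was more negative in proximal organoids for Ppargc1a (-2.61 ± 0.503, adjusted p = 0.00545), Ppargc1b (-2.33 ± 0.274, adjusted p = 0.000286), Plin2 (-1.74 ± 0.297, adjusted p = 0.00297) and Ppara (adjusted p = 0.0324), 4 of 7 members beside 9.08% of all genes. Cpt1a (-0.74, adjusted p = 0.0658) and Acadm (-0.79, adjusted p = 0.101) did not pass, although Acadm did without replicate 2 of proximal Scramble-sgRNA WENR-minus, and the Ppara call was lost without any 1 of 5 libraries (adjusted p = 0.0582 to 0.1125), namely replicate 2 of proximal Scramble-sgRNA, proximal Cdx2-sgRNA and distal Scramble-sgRNA and either replicate of distal Cdx2-sgRNA. It was also lost in a fit of the 8 compared libraries alone (adjusted p = 0.057). In this same difference 5 of 7 colonocyte, 5 of 5 goblet, 3 of 4 enteroendocrine and 4 of 7 epithelial markers were called lower and 3 of 6 cycling markers higher, and their part was not tested. In WENR-plus, Ppargc1b alone was called (-1.32 ± 0.271, adjusted p = 0.0168), 1 of 7 beside 3.76%, and Cpt1a lay just under the fold limit (-0.97, adjusted p = 0.0459). Of the markers, 2 of 7 colonocyte, 4 of 5 goblet, 4 of 4 enteroendocrine, 1 of 7 epithelial and 1 of 5 crypt stem cell were called lower there. That Ppargc1b call was lost without replicate 1 of proximal Scramble-sgRNA (-1.26, adjusted p = 0.0677), replicate 2 of distal Scramble-sgRNA (-1.16, adjusted p = 0.0785) or replicate 1 of distal Cdx2-sgRNA (-1.25, adjusted p = 0.070), and Cpt1a was called without the second of these (-1.23, adjusted p = 0.036).

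The difference in the effect of withdrawal between guides was also tested. In proximal organoids it was called for Ppargc1a (-2.60 ± 0.515, adjusted p = 0.0262), which rose with Scramble-sgRNA and not with Cdx2-sgRNA, 1 of 7 beside 1.93% of all genes. Acadm (-1.12, adjusted p = 0.0628) missed the threshold and passed with the culture of origin as a replicate block (adjusted p = 0.00289) or without replicate 2 of proximal Scramble-sgRNA WENR-minus (-1.42, adjusted p = 0.0297). With that block Ppara passed too (adjusted p = 0.0428, against 0.191 without it). Ppargc1b (-0.90, adjusted p = 0.0881) passed without replicate 1 of proximal Cdx2-sgRNA WENR-minus (-1.18, adjusted p = 0.0487). The Ppargc1a call was lost without any 1 of 5 libraries (-2.15 to -2.64, adjusted p = 0.067 to 0.0915), namely both proximal Scramble-sgRNA WENR-plus replicates, replicate 1 of proximal Scramble-sgRNA WENR-minus, and replicate 2 of proximal Cdx2-sgRNA in each medium. In distal organoids edgeR called 0 of 15289 genes (1457 at an unadjusted p under 0.05), members included, and DESeq2 called 120, and the Plin2 difference was 0.81 (adjusted p = 0.424). For the proximal difference 2 of 7 colonocyte and 2 of 7 epithelial markers were called lower and 1 of 6 cycling markers higher, and their part was not tested.

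The effect of withdrawal differed between regions in Cdx2-sgRNA organoids for 4 of 7 members, all more positive in distal organoids and beside 7.7% of all genes called in that direction: Ppargc1a (-2.57, adjusted p = 0.00484), Plin2 (-2.16, adjusted p = 0.00103), Ppargc1b (-1.72, adjusted p = 0.00185) and Acadm (-1.51, adjusted p = 0.00582), as proximal minus distal. In Scramble-sgRNA organoids 0 of 7 were called, beside 0.0392%, with Plin2 at -1.09 (adjusted p = 0.246), which passed with the culture as a replicate block (-1.11, adjusted p = 0.0158). Cpt1a did not pass in either (-0.17 and 0.07, with adjusted p = 0.903 and 0.899). For the Cdx2-sgRNA difference 5 of 7 colonocyte and 2 of 7 epithelial markers were called lower and 5 of 6 cycling markers higher. For the Scramble-sgRNA difference 1 of 7 colonocyte markers was called lower. The part of these markers was not tested.

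Comparing proximal with distal organoids directly asks where the genes differ by region of origin. With Scramble-sgRNA in WENR-minus, Ppargc1a was 4.10-fold lower in proximal organoids (-2.04 ± 0.354, adjusted p = 0.00578), the single called member of 7 beside 3.2% of all genes. That call was lost without replicate 2 of proximal Scramble-sgRNA (-2.04, adjusted p = 0.054). Ppargc1b lay at the fold limit (-0.999 ± 0.189, adjusted p = 0.00856) and was called without replicate 1 of proximal Scramble-sgRNA (-1.20) or replicate 1 of distal Scramble-sgRNA (-1.11), and with DESeq2 (-1.05). In WENR-plus 0 of 7 were called, beside 1.07% of all genes, and Ppargc1a differed by -1.32 (adjusted p = 0.0952 with edgeR and 0.0107 with DESeq2). Of the markers, 3 of 7 colonocyte and 1 of 4 enteroendocrine were called lower in proximal Scramble-sgRNA WENR-minus, and 1 of 7 colonocyte in WENR-plus. Their part was not tested.

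With Cdx2-sgRNA in WENR-minus, 6 of 7 members were lower in proximal organoids, beside 16.5% of all genes: Ppargc1a 25.0-fold, Ppargc1b 10.02-fold, Plin2 5.12-fold, Cpt1a 2.10-fold and Acadm 2.05-fold, and Ppara with 2 against 36 reads. In WENR-plus, Ppargc1a was 4.21-fold, Ppargc1b 3.03-fold and Cpt1a 2.20-fold lower, 3 of 7 beside 9.57%. Pparg did not pass in either medium (-0.08, adjusted p = 0.851, and -0.83, adjusted p = 0.0871). In WENR-minus, Acadm dropped under the fold limit without replicate 1 of proximal Cdx2-sgRNA (-0.85) or replicate 2 of distal Cdx2-sgRNA (-0.95), Cpt1a did without the latter (-0.95), and Ppara lost its call without replicate 2 of proximal Cdx2-sgRNA (adjusted p = 0.077). Between the same WENR-minus groups 5 of 7 colonocyte, 5 of 5 goblet, 3 of 4 enteroendocrine and 3 of 7 epithelial markers were lower in proximal organoids, while 5 of 6 cycling markers, 1 of 5 crypt stem cell markers and both tested immune markers were higher and 1 of 2 tested endothelial markers lower, and in WENR-plus 3 of 7 (with 1 higher), 5 of 5, 4 of 4 and 1 of 7 were lower, as were 1 of 6 cycling, 1 of 5 crypt stem cell and 1 of 2 tested endothelial markers, with 1 of 2 tested immune markers and the 1 tested tuft cell marker higher. Their part was not tested.

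Other genes of the same pathways were read from 6 lists. For each list the counts on withdrawal stand beside 8.73%, 12.2%, 3.42% and 14.9% of all genes called higher and 8.24%, 14.2%, 2.98% and 18.1% called lower in proximal Scramble-sgRNA, distal Scramble-sgRNA, proximal Cdx2-sgRNA and distal Cdx2-sgRNA, and the counts with Cdx2-sgRNA beside 12.1%, 8.94%, 3% and 0.124% called lower and 9.04%, 6.93%, 2.24% and 0.137% called higher in proximal WENR-minus, proximal WENR-plus, distal WENR-minus and distal WENR-plus. Of 24 genes of the carnitine shuttle and mitochondrial beta-oxidation, 23 were tested. On withdrawal, 3 rose and 0 fell in proximal Scramble-sgRNA organoids (median log2 fold change 0.35, beside -0.06 over all genes tested), and 5 rose and 0 fell in distal Scramble-sgRNA (0.64 beside -0.11). In proximal Cdx2-sgRNA 1 of 23 rose, a share near that of all genes, and 1 fell (0.01 beside -0.03), and in distal Cdx2-sgRNA 5 rose and 2 fell (0.25 beside -0.10).

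Slc25a20, the carnitine-acylcarnitine carrier that works next to Cpt1a, showed the widest range of these. It gave 100.5 to 145 CPM in proximal Scramble-sgRNA WENR-minus against 13.96 to 15.8 CPM in proximal Cdx2-sgRNA WENR-minus, and 239 to 258 and 231 to 242 CPM in the distal WENR-minus groups. It rose on withdrawal by 1.57, 2.72 and 2.84 in proximal Scramble-sgRNA, distal Scramble-sgRNA and distal Cdx2-sgRNA. With Cdx2-sgRNA it fell by 3.05 ± 0.278 in proximal WENR-minus (adjusted p = 1.81e-05) and by 1.84 in proximal WENR-plus.

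With Cdx2-sgRNA in proximal WENR-minus, 8 of the 23 beta-oxidation genes fell, beside 12.1% of all genes, and 1 rose (median -0.67, beside 0 to 2 decimals over all genes tested). Hadh, the short-chain hydroxyacyl-CoA dehydrogenase, fell by 2.01 to 46.5 to 50.6 CPM, from 172 to 219 CPM, and Acsl1, an acyl-CoA synthetase, rose by 1.15. In proximal WENR-plus 3 fell and 0 rose (-0.30), in distal WENR-minus 2 fell and 1 rose (-0.20), and in distal WENR-plus 0 were called (-0.03).

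Peroxisomal oxidation genes (14 of 15 tested) rose on withdrawal in 2, 5, 3 and 6 cases in proximal Scramble-sgRNA, distal Scramble-sgRNA, proximal Cdx2-sgRNA and distal Cdx2-sgRNA, and 0 fell (medians 0.65, 0.87, 0.10 and 1.03, beside -0.06, -0.11, -0.03 and -0.10 over all genes tested). With Cdx2-sgRNA in proximal WENR-minus 1 rose and 1 fell (median -0.24), the latter being Pex11a, which acts in peroxisome division (-2.08). In proximal WENR-plus 2 rose and 1 fell (0.11), in distal WENR-minus 1 rose and 0 fell (0.36), and in distal WENR-plus 0 were called (0.17, or 0.16 with floor genes at their bound).

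Lipid droplet genes and known PPAR targets (18 of 28 tested) held 4, 5, 5 and 8 genes called higher on withdrawal in the same order of cultures, and 0, 1, 0 and 1 called lower (medians 0.66, 0.46, 0.56 and 0.98, or 0.67, 0.46, 0.44 and 0.98 with genes of a group of at most 3 reads set at that floor). Creb3l3, a transcription factor of lipid metabolism, gave 0.355 to 0.478 CPM in WENR-plus and 9.59 to 20.6 CPM in WENR-minus in proximal Scramble-sgRNA (a rise of 5.14), and 0.229 to 0.635 and 39.2 to 47.4 CPM in distal Cdx2-sgRNA (6.61). Vnn1, a pantetheinase and a known PPAR target, was higher with Cdx2-sgRNA, at 261 to 413 CPM in proximal and 27.5 to 42.0 CPM in distal WENR-minus, against 1.05 to 2.97 and 1.69 to 1.72 CPM with Scramble-sgRNA. With Cdx2-sgRNA 3 genes of this list rose and 3 fell in proximal WENR-minus (median -0.26), 3 rose and 2 fell in proximal WENR-plus (0.35), and 2 rose in distal WENR-minus (0.62, or 0.59 with floor genes at their bound). Of the calls in proximal organoids, those of Lpl, Mgll and Fabp4 in WENR-minus and of Cidea and Mgll in WENR-plus had a group with at most 3 reads.

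**Figure D5:**
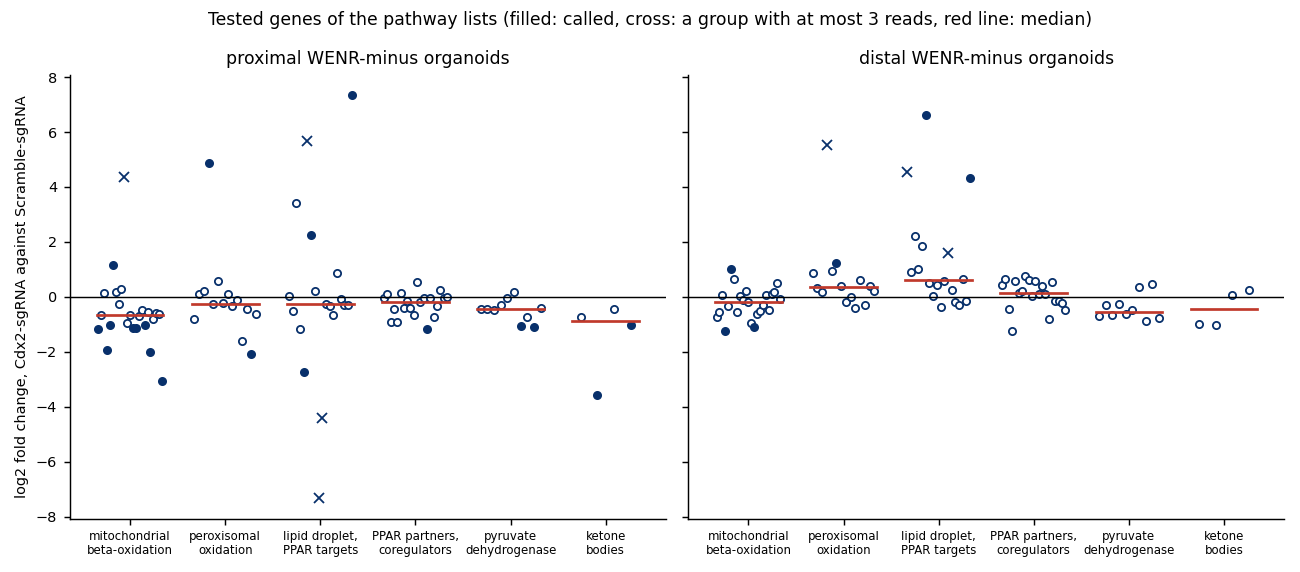
Log2 fold change of each tested gene of the 6 lists for Cdx2-sgRNA against Scramble-sgRNA in proximal (left) and distal (right) WENR-minus organoids, with filled points for called genes, crosses for genes with at most 3 reads in a group and red lines at list medians. The mitochondrial beta-oxidation genes have a median of -0.67 in proximal and -0.20 in distal organoids, and the top filled point on the left is Vnn1.

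Among PPAR partners and coregulators (20 of 22 tested), 3, 4, 1 and 6 rose and 1, 1, 0 and 3 fell on withdrawal. The list medians were 0.22, 0.10, 0.40 and 0.50. Rxra, the main RXR partner of the PPARs, rose by 1.23, 1.65 and 2.27 in proximal Scramble-sgRNA, distal Scramble-sgRNA and distal Cdx2-sgRNA. Pprc1, the third PGC-1 family member, fell by 1.35, 2.48 and 2.76 in these cultures, in each of which Ppargc1a rose. Ppard, the third PPAR, gave 119 to 133 CPM in proximal Scramble-sgRNA WENR-minus and 55.3 to 56.5 CPM in proximal Cdx2-sgRNA WENR-minus (-1.17, adjusted p = 0.000734), the single gene of this list called in that comparison.

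Among 10 pyruvate dehydrogenase genes, Pdk2, a kinase that like Pdk4 inhibits the complex, was well expressed at 13.4 to 93.8 CPM, and it rose by 1.11, 1.66 and 1.99 on withdrawal in proximal Scramble-sgRNA, distal Scramble-sgRNA and distal Cdx2-sgRNA. It was the 1 gene of the list that rose in these 3 cultures, and 0 were called in proximal Cdx2-sgRNA. With Cdx2-sgRNA in proximal WENR-minus, Pdk2 (-1.07) and Pdp1 (-1.10), a phosphatase that activates the complex, fell (list median -0.45). In distal WENR-minus the list median was -0.55 with 0 of 10 called.

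Of 4 ketone body enzymes, Bdh1, the beta-hydroxybutyrate dehydrogenase, gave 124 to 126 CPM in proximal Scramble-sgRNA WENR-minus and 5.61 to 15.4 CPM with Cdx2-sgRNA, a fall by 3.59 ± 0.595 (adjusted p = 0.00103). Oxct1, which activates ketone bodies for use, fell by 1.02 in that comparison and rose by 1.06, 1.16 and 1.21 on withdrawal in proximal Scramble-sgRNA, distal Scramble-sgRNA and distal Cdx2-sgRNA. Comparisons of the same group share its libraries and are not independent of one another.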

How the data were processed

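RNA was sequenced as 16 libraries (SMARTer stranded total RNA), 1 for each medium of an organoid culture. Per the labels and the study's methods, the authors quantified GENCODE vM23 transcripts (mm10) with Salmon 1.1.0, and deposited for each library the estimated counts, TPM and effective length of 140748 transcripts. Salmon counts are model estimates that split reads between transcripts sharing exons, and total RNA libraries keep ribosomal and intronic reads, which can move transcript shares and the TPM of short retained-intron models. The labels call the molecule genomic DNA, but the protocol describes RNA, which was taken as correct.

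The deposited estimated counts were summed per gene over the 139864 transcripts found in GENCODE vM21, the release used here in place of vM23 (0.257 to 0.509% of reads matched none) and rounded to whole numbers. Genes were filtered with filterByExpr (minimum count 10), scaled by TMM and tested over all 15289 genes with edgeR 4.0.16 (R 4.3.3, limma 3.58.1), fitting the 8 groups without a block (8 residual degrees of freedom, also used for 95% intervals of fold changes). There were 18 contrasts, 12 pairwise and 6 differences of differences. A call needed a Benjamini-Hochberg adjusted p under 0.05 and a log2 fold change over 1 in size. With 2 libraries per group no permutation test can reach that threshold, so that calls rest on the spread shared across groups and genes. The test was checked on simulated data. Alternatives were RLE scaling, DESeq2 1.42.0, other filters, smaller fits, replicate blocks, length-scaled counts, no mitochondrial genes, no fold limit, TPM levels and leaving out each library.

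The deviation of each library from the mean of its group was correlated over the tested genes between same-numbered libraries. These deviations correlated by -0.059 to 0.59 (28 pairs of groups, 9 over 0.1), with 0.28 to 0.59 in the 4 pairs of media from 1 culture. A replicate block that pairs media by culture was therefore added as an alternative, after seeing the data. The main fit has no block and does not use this pairing. Across regions and guides the number was not taken to pair samples.

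The genes, the 6 pathway lists and the marker lists were chosen with earlier results of these data known, so that they lend no independent support to a direction. From each list at most the 2 highest and the 2 lowest called genes per comparison were eligible to be named, and not all of these are reported here. Promoter windows (250 bases before to 50 after a start) came from RefSeq for GRCm38.p6, and 7 of the 9 genes matched, some with several windows.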

Additional observations from a re-analysis of the deposited data

Results flagged for a closer look

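Several genes differed in their response between regions or guides, by the test of the difference itself in edgeR's quasi-likelihood fit (n = 2 libraries per group). For Cdx2-sgRNA against Scramble-sgRNA in WENR-minus, proximal minus distal, the difference was -1.74 for Plin2, -2.61 for Ppargc1a and -2.33 for Ppargc1b on the log2 scale, and Ppara passed with an adjusted p of 0.0324 on 2 reads in its lowest group. In WENR-plus the difference for Ppargc1b was -1.32. In the WENR-minus difference 5 of 7 colonocyte, 5 of 5 goblet, 3 of 4 enteroendocrine and 4 of 7 epithelial markers were called lower and 3 of 6 cycling markers higher.

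For withdrawal of niche factors, the difference between Cdx2-sgRNA and Scramble-sgRNA in proximal organoids was -2.60 for Ppargc1a. Between proximal and distal Cdx2-sgRNA organoids it was -1.51 for Acadm, -2.16 for Plin2, -2.57 for Ppargc1a and -1.72 for Ppargc1b. In these withdrawal differences 2 and 5 of 7 colonocyte markers and 2 and 2 of 7 epithelial markers were called lower. Of the 6 cycling markers 1 and 5 were called higher, with 0 of 5 goblet markers called in either. The part of these markers in the differences was not tested.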

How the results depend on the processing

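Of 1842 fold changes set under other settings, 1751 kept their side of the threshold, 51 became and 40 ceased to be called. Of those called in either fit 0 reversed, while a change of sign was not counted where neither fit called the gene. The setting with no fold limit repeats the main fold changes and moves only the limit. Of 266 counts of called members, 224 stayed within 1.5 times. On withdrawal in proximal Cdx2-sgRNA, 0 members were called in a fit of the compared libraries alone, where edgeR called 0 of 13518 genes (2958 at an unadjusted p under 0.05), and 3 with the culture block, where all calls went from 978 to 1546 of 15289 genes (1173 with DESeq2). For Cdx2-sgRNA in proximal WENR-minus, a minimum of 10 counts in every library left 2. In distal WENR-minus, length-scaled counts or no fold limit gave 1, and in distal WENR-plus, no filter or DESeq2 gave 1. Between regions with Scramble-sgRNA in WENR-minus, RLE scaling, no filter, the replicate block, length-scaled counts, DESeq2, no mitochondrial genes or no fold limit gave 2 in place of 1, and in WENR-plus no filter or DESeq2 gave 1. For differences of differences, no fold limit gave 2 for Cdx2-sgRNA in WENR-plus. Withdrawal by guide in proximal organoids gave 3 with no filter, 2 with the stricter filter or DESeq2, 0 in the smaller fit and 3 with the culture block, while the calls over all genes were 550, 82 of 14708 in the smaller fit and 1596 with the block. Withdrawal by region with Scramble-sgRNA gave 1 with no filter, DESeq2 or the culture block. The cause of these shifts was not tested.

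Leaving out 1 library gave 1 to 4, 5 to 6, 1 to 3 and 5 to 5 members on withdrawal (proximal and distal Scramble-sgRNA, proximal and distal Cdx2-sgRNA), 3 to 6, 2 to 3, 0 to 1 and 0 to 0 for Cdx2-sgRNA (proximal and distal, WENR-minus before WENR-plus in each), and 0 to 2, 0 to 0, 4 to 6 and 3 to 3 between regions. For the 6 differences the ranges were 3 to 4, 0 to 1, 0 to 2, 0 to 0, 0 to 0 and 4 to 4. The lone library left in a group was assumed to vary like the other groups. With TPM in place of CPM, 51 of 72 ratios of group means moved by less than the spread between replicates, and 21 by more.

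Depth limits Ppara, Pdk4 and Angptl4, whose reads were too few for small differences. With 2 libraries per group, differences under about the fold limit were often not resolved for Pparg and Ppargc1a, whose fold changes had the widest standard errors after those of Ppara.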

Other observations

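The genes most like each member were found by Pearson's r of log2 CPM over the 16 libraries, among 9550 genes with a mean of at least 5 CPM. These are descriptions across 8 groups of 2 libraries that share media, guides and regions. Ppargc1b was most like Adgra3 (r = 0.992), Phospho1 (0.989) and Plekha8 (0.988), and Ppargc1a like Liph (0.953), Wdr11 (0.949) and Slc41a2 (0.943). Cpt1a was most like Rnf39 (0.968), Map3k11 (0.966) and Arhgdia (0.964), Acadm like Ergic3 (0.966), Prdx5 (0.960) and Atp6v1e1 (0.96), and Plin2 like Ccser1 (0.965), Ppp2r5c (0.960) and Ada (0.957). Pparg was most like Washc2 (0.929), Reep3 (0.927) and Dnaja2 (0.926), lower than for the enzymes, and Ppara like Dcaf13 (0.883), Slc25a25 (0.877) and Pde4dip (0.874).

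Within the 9 genes, r over the 16 libraries was 0.83 for Acadm with Plin2, 0.83 for Ppargc1a with Ppargc1b and 0.81 for Cpt1a with Pparg, but 0.28 for Ppargc1a with Pparg and 0.11 for Ppara with Pparg. Fabp4, a fatty acid binding protein best known from adipocytes and a PPARgamma target there, was found in distal Cdx2-sgRNA organoids at 8.08 to 12.4 CPM in WENR-plus and 12.4 to 18.3 CPM in WENR-minus, and in proximal Cdx2-sgRNA WENR-minus at 1.71 to 4.81 CPM, against at most 0.501 CPM in any Scramble-sgRNA library. The adipocyte markers stayed at or under 3 reads in every library, Plin1 and Adipoq among them.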
